A study of Mus musculus with 2 samples.

Results

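The macrophage-poor matrix-rich spots of 2 infarcted neonatal mouse hearts were described, 85 spots in the PD1 KO section and 81 in the PD1 Het section, or 166 of 1662 spots in all. They were chosen in each section from spots with at least 500 UMIs (unique molecular identifiers, each counting 1 captured RNA molecule). The fifth of spots with the largest share of UMIs from 8 matrix genes (Col1a1, Col1a2, Col3a1, Postn, Fn1, Cthrc1, Tnc and Lox) was taken first. Among the spots of the fifth, those below the median share of 10 macrophage genes (Cd68, Csf1r, C1qa, C1qb, C1qc, Lyz2, Ctss, Tyrobp, Fcer1g and Laptm5) were called macrophage-poor. The rest of the fifth, 85 and 81 spots, was called macrophage-rich, and 681 PD1 KO and 649 PD1 Het spots lay outside the fifth.

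After an infarct, fibroblasts fill the lost muscle with collagen and with matricellular proteins such as periostin, while macrophages clear dead cells and signal to the fibroblasts. Collagen, elastin and proteoglycans also belong to normal heart structures, namely valves and their roots, vessel walls, the endocardium that lines the cavities and the epicardium that covers the heart. A spot high in matrix genes can hold any of these.

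Transcripts were measured with Visium, an array of barcoded capture spots, each of which covers a small region with several cells. There was 1 transverse section from a PD1 KO heart and 1 from a PD1 Het heart. Both C57BL/6 mice had the left anterior descending coronary artery ligated at postnatal day 2, and the hearts were frozen 7 days later. The comparison concerns PD-1, an inhibitory receptor of lymphocytes, in the healing of the neonatal heart. With 1 section per genotype no difference has a replicate check, no test was run, and the intervals given are 95% counting intervals that compare 2 libraries or groups of spots and cover counting error only. Spots are not replicates, and 225 spot barcodes occur in both lists because barcodes name array positions.

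The macrophage-poor spots held 2076314 UMIs in the PD1 KO section and 1237132 in the PD1 Het section, with medians of 24496 and 15054 UMIs and with medians of 5565 and 3898 genes. Genes of the mitochondrial genome took 13.7% of these UMIs in PD1 KO and 22.1% in PD1 Het spots. Pdcd1, the targeted gene, had 0 UMIs in the macrophage-poor spots of both sections, which allows up to 1.44 CPM (UMIs of a gene per 1000000 UMIs of the group of spots) in PD1 KO and 2.42 CPM in PD1 Het spots, so it does not check the labels. The gene of its ligand PD-L1, Cd274, had 5 UMIs in PD1 KO and 0 in PD1 Het macrophage-poor spots, and Pdcd1lg2 had 1 and 0. The sections also differed in sex-linked transcripts. Xist had 0 UMIs in PD1 KO and 61 in PD1 Het macrophage-poor spots, and the Y-linked Ddx3y had 66 in PD1 KO and 0 in PD1 Het spots, so genotype, animal, sex and section cannot be told apart.

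The label held for the genes that chose the spots, which are given here as a description. The matrix share had a lowest value of 0.896%, a median of 1.18% and a highest value of 5.85% of a spot's UMIs in PD1 KO macrophage-poor spots, against medians of 1.81% in macrophage-rich and 0.403% in the remaining spots. In the PD1 Het section the macrophage-poor spots had 0.580%, 0.872% and 4.50%, against medians of 1.03% in macrophage-rich and 0.299% in the remaining spots. The last PD1 KO spot inside the fifth had 0.896% and the first outside 0.891%, and both values rounded to 0.580% in the PD1 Het section. The macrophage share had a median of 0.0349% in PD1 KO macrophage-poor spots, against 0.153% in macrophage-rich and 0.0248% in the remaining spots. The PD1 Het medians were 0.0254%, 0.107% and 0.0216%. The highest macrophage-poor and the lowest macrophage-rich spot had 0.0795% and 0.0798% in the PD1 KO section, and 0.0494% and 0.0499% in the PD1 Het section. Macrophage-poor therefore means poor for a matrix-rich spot: 1 PD1 KO and 6 PD1 Het macrophage-poor spots had no UMI of the 10 genes, and the median share lay above that of the spots outside the fifth.

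**Figure D1:**
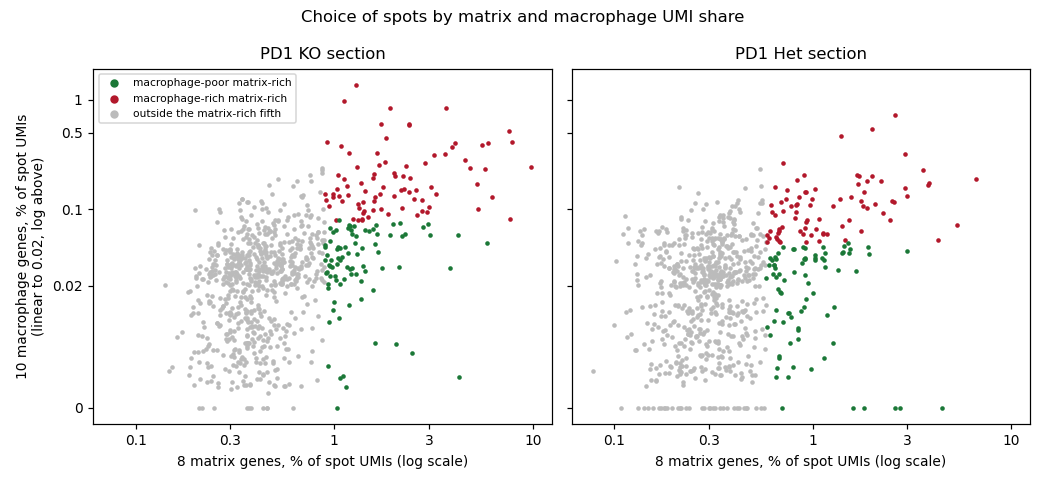
Each point is 1 spot, placed by the share of its UMIs from the 8 matrix genes (horizontal axis, percent, log scale) and from the 10 macrophage genes (vertical axis, percent), with the PD1 KO section left of the PD1 Het section. The macrophage-poor spots lie to the right of the matrix threshold and reach macrophage shares of up to 0.0795% in PD1 KO and 0.0494% in PD1 Het.

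Of the 4 marker genes, Col1a1, the main chain of type I collagen, had 3479 CPM in macrophage-poor, 5809 in macrophage-rich and 819 in the remaining PD1 KO spots. The PD1 Het values of Col1a1 were 1904, 2503 and 532 CPM. Col1a2, its partner chain, had 3050, 5061 and 713 CPM in the PD1 KO section and 1866, 2341 and 477 CPM in the PD1 Het section. Col3a1, the collagen of early scars and vessel walls, had 4206, 6123 and 1668 CPM in the PD1 KO section and 3672, 5064 and 1292 CPM in the PD1 Het section. Postn, which encodes periostin, had 1942, 2851 and 651 CPM in the PD1 KO section and 1136, 1492 and 434 CPM in the PD1 Het section. The macrophage-rich spots thus also had the higher matrix levels in both sections, so a difference between the groups below can go with either share. In spots of several cells, fewer cells of a type and less RNA per cell cannot be told apart.

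The macrophage-poor spots were set against the macrophage-rich ones first. They had less RNA of macrophages and of mast cells, of MHC class II and of the secreted proteins Spp1 and Apoe, in both sections. The choice of spots used UMI shares of the same libraries, so these values are descriptions. A gene is called higher or lower where its log2 CPM ratio lay at least 1.5-fold from that of the median gene, over genes with at least 100 UMIs in the 2 groups compared, and ratios below are on this log2 scale relative to the median gene. The median gene itself lay at -0.09 in the PD1 KO section and -0.12 in the PD1 Het section by CPM. Of 5641 genes in the PD1 KO section 1.56% were higher and 3.86% lower in macrophage-poor spots, and of 3027 in the PD1 Het section 1.39% were higher and 3.3% lower. In both sections at once 4 of 3023 genes were higher (0.132%) and 29 lower (0.959%). These became 1 and 48 genes without centring on the median gene and 7 and 22 with median-of-ratios factors. The 29 lower genes held 7 of the macrophage genes of the rule.

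All 10 macrophage genes of the rule lay lower in both sections, as the rule sets. Macrophage genes outside the rule had a median of -1.63 with 11 of 13 measured members lower in the PD1 KO section, and of -1.50 with 7 of 8 lower in the PD1 Het section. Their sum was 210 CPM in macrophage-poor, 575 in macrophage-rich and 169 in the remaining PD1 KO spots. The PD1 Het sums were 200, 503 and 172 CPM, so the macrophage-poor spots lay nearer to the spots outside the fifth than to the macrophage-rich ones in both sections. Cd163, a scavenger receptor of resident macrophages, had 0 UMIs in the macrophage-poor spots of both sections. That allows up to 1.44 CPM in PD1 KO and 2.42 CPM in PD1 Het spots and by itself is no comparison with macrophage-rich spots. Mrc1, the mannose receptor, had 15.4 CPM in macrophage-poor and 42.3 in macrophage-rich PD1 KO spots, and 12.1 and 33.4 CPM in the PD1 Het section. Pf4, a chemokine made by platelets and resident macrophages, lay at -0.79 (-1.29 to -0.30) in the PD1 KO and -1.79 (-2.38 to -1.23) in the PD1 Het section. Genes of injury macrophages had medians of -1.88 with 6 of 10 measured members lower in the PD1 KO section and -1.02 with 5 of 8 lower in the PD1 Het section.

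Spp1, which encodes osteopontin, an adhesion protein of injury macrophages and matrix cells (chromosome 5, 104435118 to 104441050, GRCm38), had the largest difference under the rule for named genes. It had 60 UMIs in 29 of 85 macrophage-poor PD1 KO spots, with a highest spot of 429 CPM, and 430 UMIs in 61 of 85 macrophage-rich spots, with a highest spot of 5984 CPM. The PD1 Het section had 22 UMIs of Spp1 in 14 macrophage-poor spots and 147 in 27 macrophage-rich spots. Most macrophage-poor spots therefore had none, and those with Spp1 lay within the range of the macrophage-rich spots. The ratios of Spp1 were -3.00 (-3.41 to -2.60) in the PD1 KO and -2.90 (-3.62 to -2.25) in the PD1 Het section. After thinning each spot to 2000 UMIs, Spp1 was present in 1.18% of 85 macrophage-poor and 29.8% of 84 macrophage-rich PD1 KO spots, and in 8.64% of 81 and 13.3% of 75 PD1 Het spots, with 1 and 6 macrophage-rich spots left out as too shallow. The thinned shares in the remaining spots were 1.91% in the PD1 KO and 1.54% in the PD1 Het section. Before thinning, Spp1 was present in 34.1% of macrophage-poor and 16.4% of the remaining PD1 KO spots, and in 17.3% and 6.63% of the PD1 Het spots. Against the spots outside the fifth, Spp1 was higher in macrophage-poor spots, at 1.39 in the PD1 KO section, and lay at 1.75 in the PD1 Het section on 22 and 50 UMIs.

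Apoe, which encodes the lipid carrier apolipoprotein E (chromosome 7, 19696109 to 19699188), showed the difference in well-filled spots. Its lowest, median and highest values were 48.5, 456 and 2436 CPM in macrophage-poor and 254, 1418 and 13453 CPM in macrophage-rich PD1 KO spots. The PD1 Het values of Apoe were 0, 387 and 2375 CPM in macrophage-poor and 0, 1195 and 5685 CPM in macrophage-rich spots. The ranges overlapped in both sections, and the median macrophage-poor spot lay below the median macrophage-rich one. The summed ratio of Apoe was -1.53 (-1.63 to -1.43) in the PD1 KO and -1.26 (-1.39 to -1.13) in the PD1 Het section.

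Mast cell genes had medians of -2.15 with 4 of 5 measured members lower in the PD1 KO section and -2.56 with 4 of 4 lower in the PD1 Het section. Cma1, the mast cell chymase, had 15.4 CPM in macrophage-poor and 70.8 in macrophage-rich PD1 KO spots, and 28.3 and 144 CPM in the PD1 Het section. Its ratios were -2.11 (-2.72 to -1.54) and -2.23 (-2.81 to -1.69). The mast cell proteases Cma1, Tpsb2, Mcpt4 and Cpa3 did not choose the spots. Mast cells also express Fcer1g of the rule, so these values are not independent of the choice. The sum of mast cell genes in macrophage-poor spots, 40.9 CPM in PD1 KO and 63.9 in PD1 Het, stayed above the 28.4 and 23.5 CPM of the spots outside the fifth. The share of spots with a mast cell UMI was not above that outside the fifth in PD1 KO. It was 36.5% of macrophage-poor, 45.9% of macrophage-rich and 40.5% of the remaining PD1 KO spots, and 37.0%, 40.7% and 24.2% in PD1 Het. After thinning to 2000 UMIs it was 3.53%, 11.9% and 4.41% in PD1 KO and 13.6%, 21.3% and 4.62% in PD1 Het.

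Genes of MHC class II, the molecules that show peptides to helper T cells, had 115 UMIs in macrophage-poor and 1022 in macrophage-rich PD1 KO spots, or 55.4 and 583 CPM. The PD1 Het section had 48 and 109 UMIs, or 38.8 and 107 CPM. The ratios of the sums were -3.31 (-3.60 to -3.03) in the PD1 KO section and -1.35 (-1.87 to -0.84) in the PD1 Het section. Cd74, the class II invariant chain, lay at -3.69 (-4.21 to -3.21) in the PD1 KO section, and the same gene lay at -1.22 (-1.99 to -0.49) in the PD1 Het section on 24 and 50 UMIs. MHC class I genes had medians of -1.08 with 7 of 9 measured members lower in PD1 KO spots and -0.39 with 0 of 6 in PD1 Het spots. B2m, the class I light chain, lay at -1.08 in the PD1 KO and -0.35 in the PD1 Het section, and H2-K1 at -1.40 and -0.40.

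Other genes lower in macrophage-poor spots included matrix and secreted proteins. Sfrp2, a secreted Wnt antagonist of fibroblasts, lay at -0.61 in the PD1 KO and -1.04 in the PD1 Het section. Timp1, an inhibitor of matrix proteases, lay at -0.67 and -0.96, and Sod3, the extracellular superoxide dismutase, at -0.75 and -0.87. Lrp1, an endocytic receptor of fibroblasts and macrophages, lay at -0.59 and -0.75. Ftl1, the ferritin light chain that stores iron, lay at -0.87 and -0.70, and Anxa1, which encodes annexin A1, at -0.79 and -0.89. Bgn, the proteoglycan biglycan, lay at -0.56 and -0.48, short of 1.5-fold in both sections, and S100a6 at -0.51 and -0.61, past it in the PD1 Het section. Fibrillar collagens had medians of -0.40 with 3 of 12 measured members lower in the PD1 KO section and -0.19 with 0 of 12 in the PD1 Het section. Small leucine-rich proteoglycans, which organise collagen fibrils, had medians of -0.44 and -0.48 with 2 of 8 lower in each section.

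Another split, chosen after the data were seen, took the macrophage-poor and macrophage-rich spots within bins of 10 spots of neighbouring matrix share. Matrix shares then had medians of 1.38% and 1.39% in the PD1 KO section and 0.918% and 0.920% in the PD1 Het section, while the macrophage share stayed apart, at 0.0382% and 0.149% in PD1 KO and 0.0261% and 0.0963% in PD1 Het. With matrix alike, the immune lists still lay below the median gene in both sections, and the collagen and proteoglycan lists lay close to it. Macrophage genes outside the rule lay at -0.95 in the PD1 KO and -1.29 in the PD1 Het section, mast cell genes at -1.45 and -1.21, and MHC class I genes at -0.92 and -0.36. Apoe lay at -1.16 and -1.13 and Spp1 at -2.59 and -1.33. Fibrillar collagens lay at 0.15 and -0.01, small leucine-rich proteoglycans at 0.13 and -0.12 and activated fibroblast genes at 0.12 and -0.11. Fibroblast identity genes lay at 0.02 in the PD1 KO section but at -0.48 in the PD1 Het section, and Wnt pathway genes at -0.11 and -0.54. Among the secreted and matrix genes named above, Anxa1 lay at -0.02, Sfrp2 at -0.16, Lrp1 at 0.01 and Sod3 at -0.50 in the PD1 KO section, so all 4 fell short of 1.5-fold there. Ftl1 at -0.64 stayed past 1.5-fold in the PD1 KO section. In the PD1 Het section Sfrp2 at -0.75 and Sod3 at -0.69 stayed past it, while Anxa1 at -0.56, Ftl1 at -0.56, Lrp1 at -0.26 and S100a6 at -0.19 did not. Timp1 lay at 0.24 and 0.09 under this split and Dkk3, a secreted Dickkopf family protein, at 0.27 in the PD1 KO section, opposite in sign to the values over the whole of the fifth, which were -0.64 for Dkk3 in the PD1 KO section and those given above for Timp1.

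**Figure D2:**
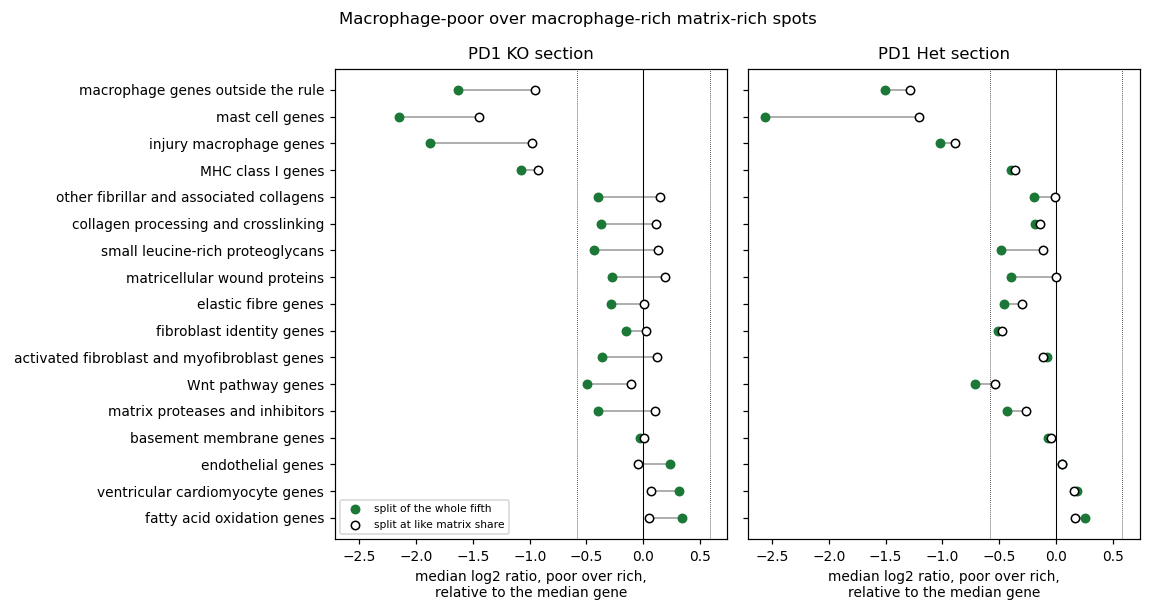
Median log2 ratio of each gene list in macrophage-poor over macrophage-rich spots relative to the median gene (horizontal axis) in the PD1 KO and PD1 Het sections, split over the whole of the fifth and split at like matrix share. Macrophage genes outside the rule stay left of 0 under both splits, at -0.95 and -1.29 with like matrix, while fibrillar collagens move to 0.15 and -0.01.

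Cardiomyocyte genes pointed the other way by a small amount. Their sum was 76059 CPM in macrophage-poor, 64700 in macrophage-rich and 92707 in the remaining PD1 KO spots. The PD1 Het sums were 77123, 73637 and 90750 CPM. The median ratio against macrophage-rich spots was 0.32 in the PD1 KO and 0.19 in the PD1 Het section, with 0 of 16 members higher and 0 lower. Cardiac troponin T (Tnnt2) lay at 0.25 and 0.27, Myl3, a ventricular myosin light chain, at 0.39 and 0.26, and the gap junction gene Gja1 at 0.37 and 0.56. Acot2, a mitochondrial thioesterase of fatty acyl-CoA, was the single gene outside the mitochondrial genome that was higher in both sections, with 88.6 CPM in macrophage-poor and 60.5 in macrophage-rich PD1 KO spots and 59.8 and 35.3 CPM in PD1 Het spots. Its ratios were 0.64 (0.29 to 1.0) and 0.88 (0.28 to 1.49). The call of Acot2 ended in the PD1 Het section with count splitting, at -0.0086, and in the PD1 KO section with like matrix shares, at 0.25. The other 3 genes higher in both sections were the mitochondrially encoded mt-Atp8, mt-Co2 and mt-Nd2. With like matrix shares the cardiomyocyte median was 0.07 in the PD1 KO and 0.16 in the PD1 Het section.

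Against the spots outside the fifth, the macrophage-poor spots had more RNA of collagens, proteoglycans, elastic fibres, valve-type and lining cell genes, and in the PD1 KO section less of fat oxidation. The median gene lay at 0.11 by CPM in the PD1 KO and 0.16 in the PD1 Het section. Of 10582 genes in the PD1 KO section 7.47% were higher and 4.76% lower, and of 8207 in the PD1 Het section 7.85% were higher and 4.65% lower. In both sections 279 of 8205 genes were higher (3.4%) and 45 lower (0.548%), and 8 of the 279 were the matrix genes of the rule. With edgeR's TMM factors these counts were 232 and 100, and with median-of-ratios factors 235 and 99. Macrophage genes outside the rule lay at 0.18 in the PD1 KO section and -0.26 in the PD1 Het section, so the macrophage-poor spots were not poorer in them than the spots outside the fifth in the PD1 KO section. In the PD1 Het section the measures disagreed, as the sum given above was higher in macrophage-poor spots. After thinning to 2000 UMIs, these genes were present in 32.1% of macrophage-poor and 26.0% of the remaining PD1 Het spots.

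Cilp, a matrix protein of cartilage and of cardiac fibroblasts (chromosome 9, 65265180 to 65280605), led the named genes. Its values in PD1 KO spots were 0, 127 and 1898 CPM (lowest, median and highest) in macrophage-poor spots and 0, 0 and 411 CPM in the spots outside the fifth. In the PD1 Het section Cilp was found in 38 of 81 macrophage-poor spots, with a highest spot of 999 CPM, and in 81 of 649 remaining spots, with a highest spot of 170 CPM. The groups overlapped, and the highest spot was macrophage-poor in both sections. The sums were 228 and 25.6 CPM in the PD1 KO section and 97.0 and 9.0 CPM in the PD1 Het section, at ratios of 3.04 (2.86 to 3.23) and 3.27 (2.87 to 3.67). Thbs4, thrombospondin 4 of tendon and stressed heart (chromosome 13, 92751590 to 92794818), lay at 3.43 and 3.07. Col12a1, a collagen that decorates fibrils, lay at 3.79 and 2.85, and Ltbp2, a microfibril protein, at 3.05 and 2.86. Sfrp2 lay at 2.45 and 2.38, Fibin at 1.98 and 2.21, Col16a1, another fibril-associated collagen, at 1.95 and 2.02, and Bgn at 1.73 and 1.71. Against the macrophage-rich spots none of these genes was called higher in both sections, and Ltbp2 and Sfrp2 were called lower in both. With like matrix shares Ltbp2 lay at -0.08 and -0.11 and Col12a1 at 0.85 and 0.90 in that comparison.

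The matrix lists were higher by most of their measured members. The fibrillar collagen list, which holds none of the genes that chose the spots, had medians of 1.30 with 11 of 12 measured members higher in the PD1 KO section and 1.23 with 10 of 12 in the PD1 Het section. Small leucine-rich proteoglycans had 1.40 with 7 of 8 and 1.01 with 6 of 7, and among them Dcn, which encodes decorin, had 881 and 442 CPM in the PD1 KO section and 787 and 390 CPM in the PD1 Het section. Matricellular proteins had 1.29 with 13 of 17 and 0.96 with 15 of 17, and elastic fibre genes 1.13 and 0.98 with 13 of 16 in each. Fibroblast identity genes had 0.82 with 7 of 12 and 0.77 with 8 of 11. Genes of valves, tendon and cartilage had 2.02 with 12 of 15 in the PD1 KO and 1.81 with 10 of 11 in the PD1 Het section. Of these, Fmod, the proteoglycan fibromodulin, had 106 and 6.86 CPM in the PD1 KO section and 52.5 and 3.13 CPM in the PD1 Het section, at 3.84 and 3.91. Tnmd, the tendon protein tenomodulin, lay at 4.59 (3.83 to 5.41) on 55 and 20 UMIs in the PD1 KO section and 4.93 (3.04 to 7.40) on 12 and 3 UMIs in the PD1 Het section. Basement membrane genes stayed close to the median gene, at 0.18 with 1 of 13 higher and 0.21 with 2 of 13 higher. Measured members are those with at least 30 UMIs in the groups compared, so a gene found in few spots outside the fifth enters a list through the spots where it is high.

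**Figure D3:**
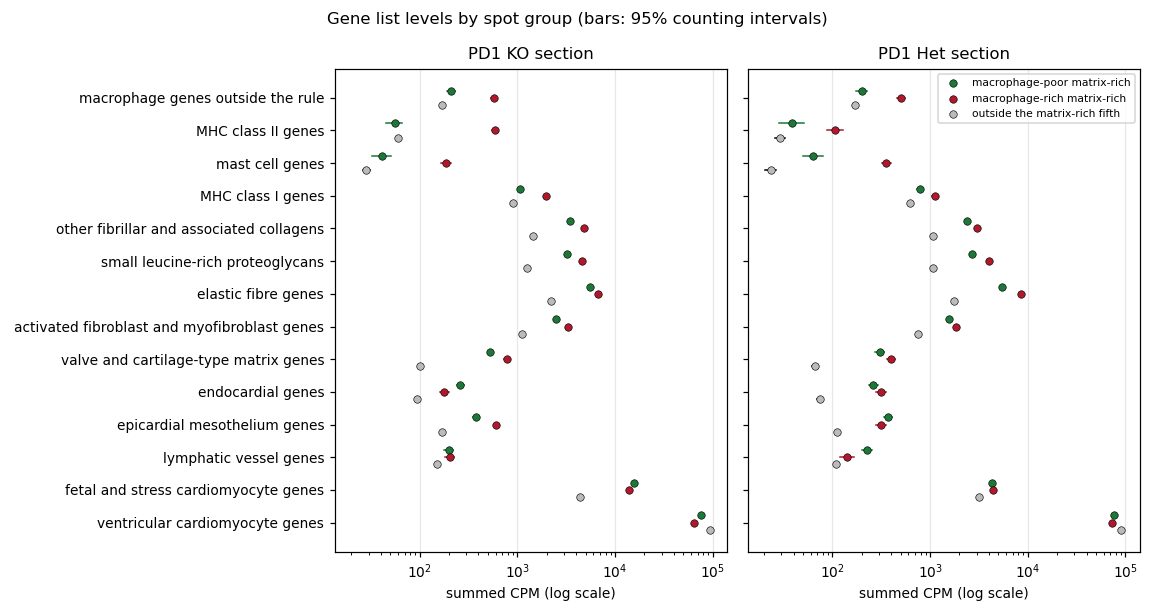
Summed CPM (horizontal axis, log scale) of 14 gene lists in macrophage-poor, macrophage-rich and remaining spots of the PD1 KO and PD1 Het sections, with 95% counting intervals. The elastic fibre sum is 5514, 6683 and 2185 CPM in PD1 KO and 5392, 8600 and 1737 CPM in PD1 Het, and the macrophage sum outside the rule is 210, 575 and 169 CPM in PD1 KO and 200, 503 and 172 CPM in PD1 Het.

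Eln, which encodes elastin (chromosome 5, 134702593 to 134747323), had 87.2, 1477 and 14629 CPM (lowest, median and highest) in macrophage-poor PD1 KO spots, against 0, 381 and 7256 CPM in the spots outside the fifth. The PD1 Het values of Eln were 0, 1577 and 20561 CPM, against 0, 258 and 3453 CPM. The spots overlapped, and the highest macrophage-poor spot lay above every remaining spot in both sections. The ratios of the sums were 1.85 (1.80 to 1.90) and 2.49 (2.42 to 2.56).

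Lining cell genes were also higher than outside the fifth. Endocardial genes had medians of 1.31 with 8 of 8 measured members higher in the PD1 KO section and 1.69 with 6 of 7 in the PD1 Het section. Plvap, a protein of endothelial fenestrae, lay at 2.00 (1.62 to 2.36) and 2.40 (1.85 to 2.95), and Npr3, the natriuretic peptide clearance receptor of endocardium, at 1.90 (1.47 to 2.32) and 2.23 (1.71 to 2.74). Epicardial genes had medians of 1.0 with 7 of 11 higher and 1.56 with 7 of 10 higher. General endothelial genes did not share this, at -0.44 with 4 of 14 lower in the PD1 KO section and -0.11 with 0 of 14 in the PD1 Het section, where CPM without centring gave 0.05. Against macrophage-rich spots of like matrix share, endocardial genes lay at 0.48 with 3 of 7 higher in the PD1 KO section. In the PD1 Het section they lay at -0.66 with 5 of 6 lower. Over the whole of the fifth, epicardial genes without C3 lay at -0.36 and 0.08 against macrophage-rich spots. By these ratios neither list was higher than in macrophage-rich spots in both sections.

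Fatty acid oxidation genes were lower than outside the fifth in the PD1 KO section, with a median of -0.60 and 9 of 17 measured members lower, against 4.76% of all genes. In the PD1 Het section the median was -0.44 with 1 of 17 lower, near the 4.65% of all genes. Hadha, a subunit of the mitochondrial trifunctional protein, had 963 and 1334 CPM in the PD1 KO section and 953 and 1278 CPM in the PD1 Het section, at -0.58 and -0.59, past 1.5-fold in the PD1 Het section. Decr1, which prepares unsaturated fatty acids for oxidation, lay past it in both, at -0.64 and -0.68. Acaa2, the thiolase of the pathway, lay at -0.72 and -0.56 and Ckmt2, a mitochondrial creatine kinase, at -0.78 and -0.55, each past 1.5-fold in the PD1 KO section. Ckm, muscle creatine kinase, lay at -0.56 and -0.52, short of it in both. Fabp4, a fatty acid carrier of capillaries and fat, lay at -0.64 and -0.54, past it in the PD1 KO section. Fbp2, the muscle fructose bisphosphatase, lay at -1.08 and -2.11 and Slc26a10 at -1.10 and -1.18, both past 1.5-fold in each section. Cardiomyocyte genes lay at -0.38 and -0.39 with 0 of 16 higher and 0 lower, and 0 of 85 PD1 KO and 0 of 81 PD1 Het macrophage-poor spots reached their section's top 10% for these genes.

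The macrophage-poor spots were not alike. Each spot was ranked within its section by its CPM of a gene list, and the top 10% were 85 PD1 KO and 81 PD1 Het spots. For elastic fibre genes 30 of 85 PD1 KO and 32 of 81 PD1 Het macrophage-poor spots reached it, for endocardial genes 28 and 25, for epicardial genes 25 and 18, for lymphatic genes 18 and 21, and for fetal and stress genes of cardiomyocytes 35 and 22. Elastic fibre and endocardial genes shared 20 PD1 KO and 16 PD1 Het of these spots, and elastic fibre and epicardial genes 5 and 5. Endocardial and stress genes shared 7 and 2 spots. In none of the 5 lists were 14 PD1 KO and 13 PD1 Het spots, in a pair of lists 28 and 35, and in all 5 of them 0 and 0. The lymphatic list's members with the most UMIs were Fgl2 and Prox1, and cardiomyocytes also express Prox1. In PD1 KO macrophage-poor spots this list had 410 UMIs, of which Lyve1 had 7 and Mmrn1 0. Whether the 18 PD1 KO spots ranked high by this list hold lymphatic vessels was not tested. Across the macrophage-poor spots, Spearman's rho between elastic fibre and endocardial levels was 0.51 over 85 PD1 KO and 0.48 over 81 PD1 Het spots, and between endocardial and stress levels -0.31 and -0.27. The spots share a library, depth differs between them and CPM shares add to a fixed total, so these coefficients describe the spots only. The stress list includes the natriuretic peptide gene Nppa. Without Nppa, the list's sum over that outside the fifth lay at 0.50 (0.47 to 0.52) in the PD1 KO section. In the PD1 Het section it lay at -0.06 (-0.11 to -0.01), so the other stress genes together were not higher there. Macrophage-rich spots held genes of these lists too. Elastic fibre genes without Eln had 3438 CPM in macrophage-poor and 4306 in macrophage-rich PD1 KO spots, and 3069 and 4447 in PD1 Het. After thinning to 2000 UMIs, epicardial genes were present in 50.6% and 61.9% of these PD1 KO spots and 30.9% and 38.7% in PD1 Het. Endocardial genes went the other way, at 42.4% and 28.6%, and 32.1% and 26.7%.

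The range within the macrophage-poor spots was wide. Endocardial genes had a lowest spot of 0, a median of 157 and a highest spot of 1731 CPM in the PD1 KO section and 0, 112 and 1963 CPM in the PD1 Het section. Epicardial genes had 0, 297 and 1577 CPM in the PD1 KO and 0, 141 and 10512 CPM in the PD1 Het section. Elastic fibre genes had 1482, 4482 and 23078 CPM in PD1 KO and 1127, 4591 and 30426 CPM in PD1 Het spots. Each list thus had a few spots far above the median in each section.

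**Figure D4:**
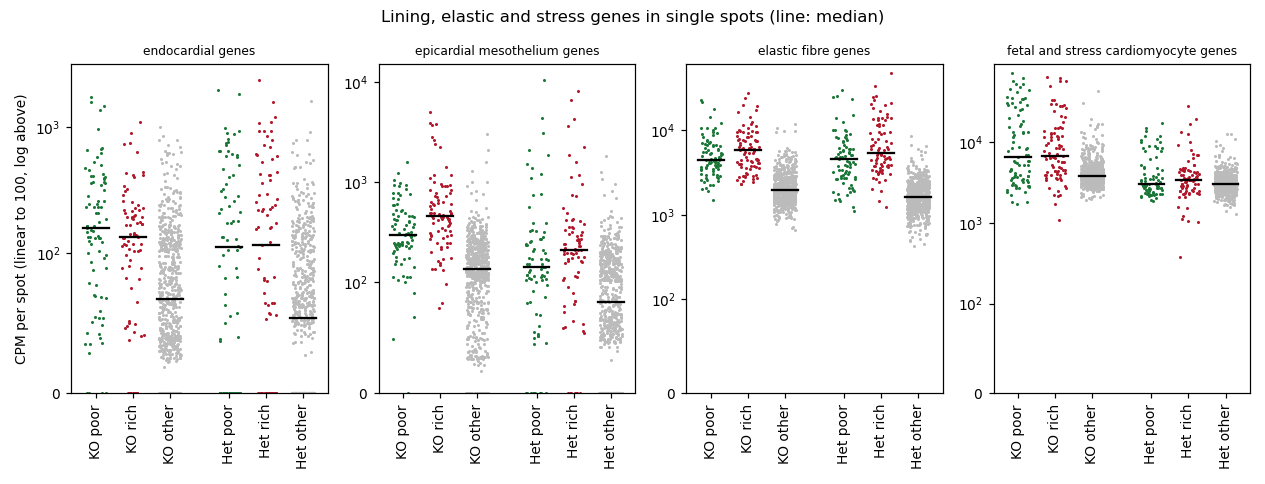
CPM per spot (vertical axis) of endocardial, epicardial, elastic fibre and cardiomyocyte stress genes in macrophage-poor, macrophage-rich and remaining spots of the PD1 KO and PD1 Het sections, where each point is 1 spot and the line is the median. Stress genes reach 71014 CPM in a PD1 KO macrophage-poor spot and 17358 CPM in a PD1 Het one, with medians of 6572 and 2999 CPM.

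Between the sections, the macrophage-poor spots of the PD1 KO heart had more RNA of fetal and stress genes of cardiomyocytes and of single matrix genes such as Thbs1, and less of C3 and of single genes of adventitial fibroblasts and endothelium. Of 4566 genes 7.31% (334) were higher and 3.99% (182) lower in PD1 KO than in PD1 Het macrophage-poor spots. The median gene lay at 0.22 by CPM, and the counts were 789 and 59 without centring and 423 and 129 with a total that left out mitochondrial and red blood cell genes. In macrophage-rich spots 9.09% were higher and 5.79% lower, and in the spots outside the fifth 5.57% and 3.24%. Red blood cell genes moved with this comparison, at a median of -0.92 with 4 of 5 measured members lower and sums of 6872 CPM in PD1 KO and 11488 in PD1 Het spots. That median was 0.32 when the middle of the fifth by macrophage share was left out. The mitochondrial share and depth given above also differed. Their part in the differences was not tested.

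Nppa, the atrial natriuretic peptide that ventricles express before birth and under load (chromosome 4, 148000722 to 148002079), had 0, 2080 and 60302 CPM (lowest, median and highest) in PD1 KO and 0, 188 and 9794 CPM in PD1 Het macrophage-poor spots. The ranges overlapped, and the median PD1 KO spot lay far above the median PD1 Het one. The sums were 9849 and 1080 CPM, at a ratio of 2.97 (2.89 to 3.05), against 2.70 in macrophage-rich and 1.46 in the remaining spots. The 8 spots with the most Nppa held 46.7% of its UMIs in PD1 KO and 51.9% in PD1 Het macrophage-poor spots. Nppa was also higher in macrophage-poor spots than outside the fifth within each section, at 3.73 and 2.30.

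The list of fetal and stress genes had a median of 0.89 with 8 of 13 members higher in PD1 KO macrophage-poor spots, 0.73 with 8 of 13 in macrophage-rich spots and -0.02 with 2 of 13 in the spots outside the fifth. With Nppa left out, as was chosen once its values were known, the sum was 5612 CPM in PD1 KO and 3230 in PD1 Het macrophage-poor spots, at 0.58 (0.53 to 0.63), against 0.54 in macrophage-rich and -0.06 in the remaining spots. The differences between these groups of spots were not tested. Myh7, the slow myosin heavy chain (chromosome 14, 54970684 to 54994626), had 519 and 78 CPM at 2.52 (2.22 to 2.84), against 0.54 in the spots outside the fifth. Acta1, skeletal alpha actin, had 628 and 154 CPM at 1.81, and Ankrd1, a strain-responsive sarcomere protein, had 1436 and 627 CPM at 0.98. Nppb, the brain natriuretic peptide, had 169 and 67.9 CPM at 1.1. Cardiomyocyte genes as a whole lay at -0.18 with 0 of 16 higher and 0 lower, and at 0.04 by CPM.

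Clu, which encodes clusterin, an extracellular chaperone (chromosome 14, 65968483 to 65981547), had 0, 436 and 14175 CPM in PD1 KO and 0, 190 and 6013 CPM in PD1 Het macrophage-poor spots. The groups overlapped, and the highest spot was a PD1 KO one. The sums were 1555 and 284 CPM, at 2.24 (2.08 to 2.40), against 2.30 in macrophage-rich and 0.22 in the remaining spots. Levels of Nppa and Clu ranked the macrophage-poor spots alike, with Spearman's rho of 0.87 over 85 PD1 KO and 0.60 over 81 PD1 Het spots, and Nppa and Myh7 had 0.86 and 0.51. Both members of each pair rank by CPM in the same libraries.

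Matricellular genes as a list had a median of 0.16 with 5 of 16 measured members higher and 4 lower, and sums of 3900 CPM in PD1 KO and 2957 in PD1 Het macrophage-poor spots. Of single matrix genes, Thbs1, thrombospondin 1 of wounds, had 87.2 CPM in PD1 KO and 12.1 in PD1 Het macrophage-poor spots, at 2.63, against 2.08 in macrophage-rich and 0.56 in the remaining spots. Col12a1 had 183 and 40.4 CPM at 1.96 and Thbs4 161 and 43.7 CPM at 1.66. Ccn1, a matricellular protein of stretched tissue, had 86.7 and 23.4 CPM at 1.67. Cnn1, calponin of smooth muscle and myofibroblasts, had 61.7 and 10.5 CPM at 2.33, and its 13 PD1 Het UMIs lay in 8 spots. Of the genes that chose the spots, Col1a1 lay at 0.65, Col3a1 at -0.02 and Cthrc1, a secreted protein of activated fibroblasts, at 1.58. Activated fibroblast genes, a list that shares Cthrc1 with the rule, had a median of 0.50 with 5 of 13 measured members higher and 0 lower.

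Other genes higher in PD1 KO macrophage-poor spots were Pdk4, the kinase that turns off glucose oxidation, and Krt8, a keratin of epicardium. Pdk4 had 156 CPM in PD1 KO and 29.9 in PD1 Het macrophage-poor spots at 2.16, and lay at 2.37 in macrophage-rich and 2.19 in the remaining spots. Krt8 had 51.5 and 12.1 CPM at 1.87. Nutf2-ps1, a pseudogene whose reads the counting may have shared with its parent gene, had 52.5 and 8.08 CPM and is uncertain.

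**Figure D5:**
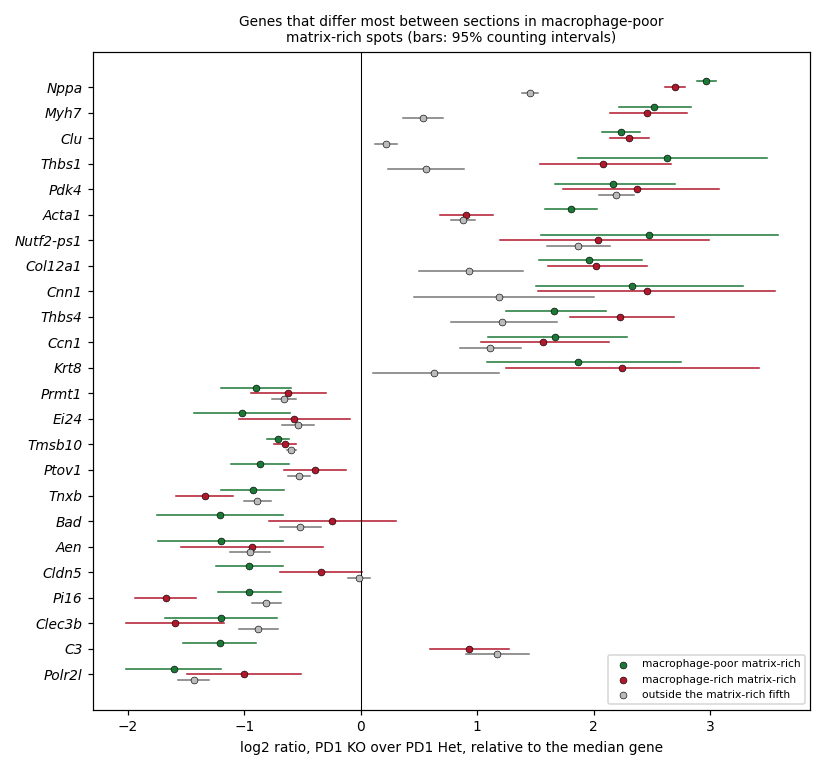
Log2 ratio of PD1 KO over PD1 Het relative to the median gene (horizontal axis) for 24 named genes in macrophage-poor, macrophage-rich and remaining spots, with 95% counting intervals. Nppa, Myh7, Clu and Thbs1 lie farther right in macrophage-poor spots, at 2.97, 2.52, 2.24 and 2.63, than in the remaining spots, at 1.46, 0.54, 0.22 and 0.56, while Pdk4 lies at 2.16 and 2.19.

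Of the genes lower in PD1 KO macrophage-poor spots, Pi16, a marker of adventitial fibroblasts, had 111 CPM in PD1 KO and 185 in PD1 Het spots, at -0.96 (-1.23 to -0.69). Clec3b, which encodes the plasminogen-binding protein tetranectin, lay at -1.20 and Tnxb, tenascin X of loose connective tissue, at -0.93. The list of adventitial and progenitor fibroblast genes had a median of -0.12 with 0 of 13 higher and 4 lower, and 0.10 by CPM. Cldn5, the endothelial tight junction protein, had 98.3 and 164 CPM at -0.96, against -0.34 in macrophage-rich and -0.02 in the remaining spots. Tmsb10, the actin-binding thymosin beta 10, had 395, 936 and 1711 CPM in PD1 KO and 296, 1284 and 2809 CPM in PD1 Het spots. The whole PD1 KO range lay within the PD1 Het range, and the ratio of the sums of Tmsb10 was -0.71. Polr2l, a small RNA polymerase subunit, had 40.5 and 106 CPM at -1.61, and lay at -1.43 in the spots outside the fifth. Aen lay at -1.20, Bad at -1.21, Ei24 at -1.02, Prmt1 at -0.90 and Ptov1 at -0.87.

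C3, the central complement component (chromosome 17, 57203970 to 57228136), had 75.1 CPM in PD1 KO and 150 in PD1 Het macrophage-poor spots, at -1.21 (-1.53 to -0.90). It was found in 41 PD1 KO spots, with a highest spot of 800 CPM, and in 18 PD1 Het spots, with a highest spot of 2971 CPM. The 8 spots with the most C3 held 60.3% of its 156 PD1 KO UMIs and 81.1% of its 185 PD1 Het UMIs. In macrophage-rich spots C3 lay at 0.93 and in the spots outside the fifth at 1.17, opposite to the macrophage-poor spots. Complement genes had a median of -0.58 with 1 of 8 measured members higher and 4 lower, while their sum, led by Clu, lay at 0.99. Without Clu the sum was 491 and 604 CPM, at -0.52 (-0.65 to -0.38).

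Immune genes of the macrophage-poor spots were few in both sections. MHC class II genes of PD1 KO over PD1 Het lay at 0.30 (-0.20 to 0.81) in macrophage-poor, 2.27 (1.98 to 2.56) in macrophage-rich and 0.69 (0.51 to 0.87) in the remaining spots. The difference between these ratios was not tested, and the interval in macrophage-poor spots holds both 0 and the ratio outside the fifth. Macrophage genes outside the rule had a median of -0.12 with 1 of 6 measured members higher and 2 lower, and 0.09 by CPM. T cell genes summed to 6.74 CPM in PD1 KO and 4.85 in PD1 Het macrophage-poor spots, with 0 members that reached 30 UMIs. Cell cycle genes had a median of 0.38 with 8 of 24 higher and 1 lower. Immediate early and heat shock genes, which tissue handling also induces, had 0.61 with 6 of 12 higher and 0 lower.

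Lymphatic vessel genes differed on few UMIs. Lyve1, a hyaluronan receptor of lymphatic vessels and resident macrophages, had 7 UMIs in PD1 KO and 29 in PD1 Het macrophage-poor spots, at -3.02 (-4.45 to -1.79). Mmrn1, a marker of lymphatic endothelium, had 0 and 23 UMIs. With the 0 set to the floor of 3 counts over the group, its CPM was 12.9-fold lower in PD1 KO spots. That value leaves out the counting error of the 23 UMIs and is not relative to the median gene. Prox1, the transcription factor of lymphatic endothelium that cardiomyocytes also express, had 46.2 and 27.5 CPM at 0.53 (-0.05 to 1.14), so the list did not move one way.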

How the data were processed

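Each of the 2 sections was deposited as a matrix of raw UMI counts per gene and spot, per the file headers from Space Ranger 1.1.0 as the authors ran it. Builds mm10 and GRCm38 are listed by the submitters' processing notes. Not given in the sources used here are the annotation release, the aligner settings and the rule by which spots were kept, and spot positions were not used here. Gene positions are from GENCODE vM21 (GRCm38), where 32235 of 32285 gene IDs were found.

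UMIs were summed per section and group of spots and scaled to CPM, with no correction between sections. CPM ratios were divided by that of the median gene over genes with at least 100 UMIs, and intervals are exact conditional 95% intervals for ratios of counts and exact binomial ones for shares. A count of 0 allows up to 3 counts. A total of 48 lists with 637 genes were used, of which 5 were not matched to exactly 1 symbol, and a list's median covers members with at least 30 UMIs. The members and lists were chosen with earlier results of these data known.

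Named genes are the rule genes, Pdcd1, Cd274, Pdcd1lg2, and, per comparison, the 12 highest and 12 lowest by the interval's bound nearest 0 (the weaker section where both count), with ribosomal, mitochondrial, sex-linked and red blood cell genes and unnamed models left out. In each list they are the 4 members with the most UMIs and the most extreme ones. Cd163, Mrc1, Nppb and the 3 mitochondrial genes were named after their values were seen. A gene that the rule names is not reported here. The ratio step was tested on simulated data. The alternatives were other filters, thresholds and scalings, with edgeR 4.0.16 (R 4.3.3) used for TMM factors only. Other steps used Python 3.11.15 with numpy 2.4.6, pandas 2.3.3, scipy 1.17.1 and matplotlib 3.10.9.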

Additional observations from a re-analysis of the deposited data

Results flagged for a closer look

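Effects of the same contrast pointed in opposite directions in the 2 sections or groups of spots for 3 items, and none of these differences was tested. C3 in macrophage-poor over macrophage-rich spots lay at a log2 ratio of -1.30 in the PD1 KO and 0.83 in the PD1 Het section, and C3 in PD1 KO over PD1 Het spots lay at -1.21 in macrophage-poor and 0.93 in macrophage-rich spots. The summed epicardial genes, which include C3, lay at -0.60 in the PD1 KO and 0.34 in the PD1 Het section in macrophage-poor over macrophage-rich spots, and without C3 at -0.36 (-0.51 to -0.20) and 0.08 (-0.18 to 0.34). The median of the epicardial members in the PD1 Het section was -0.55, opposite in sign to their sum. Plvap lay at 0.77 (0.25 to 1.30) in the PD1 KO and -0.69 (-1.24 to -0.15) in the PD1 Het section in the same contrast.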

How the results depend on the processing

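No paired analysis was possible because each genotype has 1 section and the labels carry no replicate numbers. Over all alternatives, 1799 of 2160 values of named genes and 2753 of 3474 list medians stayed within their counting interval or spread, 355 and 718 moved and 6 and 3 changed sign past the call. Counts of called genes depended on the filter. For PD1 KO over PD1 Het in macrophage-poor spots, with 334 higher and 182 lower, the counts were 789 and 59 without centring, 673 and 430 at 50 UMIs, 76 and 46 at 300 UMIs, 3557 and 2687 at 1 UMI and 163 and 90 with spots thinned to 10000 UMIs, with 214 higher when the middle of the fifth by macrophage share was left out and 308 lower with count splitting. For macrophage-poor spots over those outside the fifth, with 279 higher and 45 lower, 429 and 18 were called without centring, 138 and 14 at 300 UMIs, 1290 and 1438 at 1 UMI, 447 and 341 with the top 10% by matrix share, and 172 higher after thinning. The lower count alone was 23 without mitochondrial and red blood cell genes in the total, 100 with TMM, 99 with median-of-ratios factors, 103 at 50 UMIs, 71 with each spot weighted equally, 24 with the top 25%, 122 with count splitting and 92 with like matrix shares. For macrophage-poor over macrophage-rich spots, with 4 higher and 29 lower, 1 and 48 were called without centring, 9 and 70 at 50 UMIs, 1 and 5 at 300 UMIs, 597 and 899 at 1 UMI, 9 and 18 with the top 10%, 16 and 57 without the middle of the fifth, 0 and 12 after thinning and 2 and 15 with like matrix shares, with 7 higher by median-of-ratios factors and 8 with each spot equal. Signs turned for the lymphatic median with the top 10%, at -0.14 against macrophage-rich and -0.52 against the spots outside the fifth in the PD1 Het section, for the red blood cell median of PD1 KO over PD1 Het without the middle of the fifth (0.32), for Acot2 (-0.0086) and Timp1 (0.10) in the PD1 Het section with count splitting, and with like matrix shares for Lrp1 (0.013), Dkk3 (0.27) and Timp1 (0.24) in the PD1 KO and Timp1 (0.089) in the PD1 Het section. The causes were not tested. The fall of C3 in PD1 KO macrophage-poor spots was -0.76 with the top 10% and -2.00 without the middle of the fifth. With 1237132 UMIs in PD1 Het macrophage-poor spots, genes under about 30 UMIs, T cell and PD-1 pathway genes among them, were not resolved.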
